A study of Homo sapiens with 6 samples.

Results

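Polycomb repressive complex 1 (PRC1) places a single ubiquitin on histone H2A, and 10 genes of its ligase core and its variant complexes are described here. They are RING1, RNF2, BMI1, PCGF1, PCGF2, PCGF3, PCGF5, PCGF6, KDM2B and RYBP, chosen by gene symbol, and the count table lists all 10 among its 23228 genes. RNA-seq was made from U2OS, a human osteosarcoma cell line, harvested 48 hours after lipid transfection. The control group (3 libraries) received scrambled siRNA, and the knockdown group (3 libraries) received siRNAs against ALKBH5 (their number and sequences are not used here), the enzyme that removes the N6-methyladenosine mark from RNA. Both groups share the line, the transfection reagent and the harvest time. The data hold no rescue and no untransfected cells, so loss of ALKBH5 and other effects of the siRNA cannot be told apart. The labels do not say whether replicates were separate cultures, and p-values here reflect library-to-library spread that may be technical only.

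Every PRC1 complex is built on a heterodimer of a RING-finger ligase, RING1 or RNF2 (also called RING1B), and a PCGF protein. The PCGF protein decides which other subunits join. Complexes on BMI1 (PCGF4) or PCGF2 can take a CBX protein that reads methylated histone H3, or RYBP or its paralogue YAF2. Complexes on PCGF1, PCGF3, PCGF5 or PCGF6 are the variant forms: they carry RYBP or YAF2, and the PCGF1 form is brought to CpG-rich promoters by the CXXC zinc finger of KDM2B. The ubiquitin mark on H2A is bound by JARID2 and AEBP2 of the second Polycomb complex, PRC2, and is taken off by BAP1 and other deubiquitinases.

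The sequences before the listed starts of the members held very different numbers of CpG dinucleotides. The promoters of both members that rose in the knockdown are shown as examples, and KDM2B binding was not measured. All 10 members were matched to RefSeq promoters (GRCh38.p14), of which the 250 bases before the most upstream listed start were read. The lines give the PCGF5 promoter at chr10:91162743-91162992 (plus strand) and the RYBP promoter at chr3:72446624-72446873 (minus strand), both 5′ to 3′, with each CpG dinucleotide in capitals.
PCGF5: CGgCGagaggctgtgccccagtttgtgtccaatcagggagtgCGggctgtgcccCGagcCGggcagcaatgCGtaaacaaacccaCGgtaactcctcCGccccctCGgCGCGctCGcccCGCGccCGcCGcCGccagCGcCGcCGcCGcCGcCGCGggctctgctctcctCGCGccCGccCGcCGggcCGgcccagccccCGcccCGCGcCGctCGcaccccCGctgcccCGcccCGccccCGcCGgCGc
RYBP: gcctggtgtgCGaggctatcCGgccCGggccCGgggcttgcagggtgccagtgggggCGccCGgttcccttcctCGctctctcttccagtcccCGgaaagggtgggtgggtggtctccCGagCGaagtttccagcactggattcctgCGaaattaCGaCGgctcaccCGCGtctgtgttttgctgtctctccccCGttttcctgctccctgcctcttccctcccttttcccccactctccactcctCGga

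The PCGF5 window held 41 CpG dinucleotides, the most among the 10 members, and the RYBP window held 17. CG reads the same on both strands, and 96.9% of 15843 protein-coding promoters of this length held it at least once. Their median was 17, with quartiles of 6 and 26, and 2.15% held as many as PCGF5 or more. PCGF3 and BMI1 had 35 each and RING1 and RNF2 had 34 each. PCGF6 had 19, KDM2B 13, PCGF1 12 and PCGF2 just 1, where 12.9% of promoters held at most 2. The windows of PCGF2 (38746629-38746878) and PCGF1 (74507696-74507945) lie inside these genes in GENCODE 29, whose 5′ ends are at 38749817 and 74508580. Their low counts therefore belong to sequence before an internal listed start and may not describe the promoter in use. The windows of RNF2 (185045308-185045557) and PCGF3 (705582-705831) also reach into these genes, whose 5′ ends are at 185045364 and 705748. The counts of RNF2 and PCGF3 therefore also include sequence inside the genes. The windows of RING1 and PCGF6 reach inside by a few bases only. Members that rose and members that fell both included CpG-rich windows. PCGF5 has 4 listed starts, KDM2B 4 and BMI1 2, and the gene counts do not show which start was used. By position, BMI1, PCGF5 and PCGF6 lie on chromosome 10, RYBP on chromosome 3, PCGF3 on chromosome 4 and RING1 on chromosome 6. RNF2 lies on chromosome 1, PCGF1 on 2, KDM2B on 12 and PCGF2 on 17.

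The scrambled libraries had 18817181 to 23410007 reads assigned to genes, and the knockdown libraries had 19748583 to 19919797. ALKBH5 itself had 138, 148 and 143 CPM (reads scaled to the size of each library, with TMM factors) in the scrambled and 19.4, 16.2 and 15.7 CPM in the knockdown libraries (log2 fold change −3.06, SE 0.10, edgeR adjusted p = 1.6e-09). Uniquely placed reads outside genes made up 15.0% to 15.5% in the scrambled and 17.3% to 18.6% in the knockdown libraries, and their part in the results was not tested. Of 10 osteoblast and mesenchymal markers, only COL1A1, SPARC and VIM were abundant in both groups (means of 1427.5 CPM or more). RUNX2 (394 to 1003 reads per library) and SPP1 (239 to 436 reads) were far lower. COL1A2 had 15 to 202 reads and ALPL 41 to 109 reads per library. SP7 and BGLAP had at most 2 reads in any library, and the bone sialoprotein gene IBSP was at 0 in all libraries. Of the 10 markers, 7 were tested, with 2 higher and 3 lower. Over all tested genes 30.8% were higher and 30.8% lower (edgeR adjusted p under 0.05), a background for each marker list here. The 8 leukocyte markers summed to 33.7 to 35.2 CPM in the scrambled and 111 to 208 CPM in the knockdown libraries, with 3 of the 5 tested higher and 2 lower (PTPRC and CORO1A). DESeq2 called neither of these lower, and with single libraries left out 0 or 1 was called lower. ITGB2, an integrin chain, was not called higher without scrambled replicate 3 (edgeR adjusted p = 0.058) or knockdown replicate 2 (adjusted p = 0.068). CD3E was at 0, and the pan-leukocyte marker PTPRC had 1.31 ± 0.39 and 0.619 ± 0.26 CPM (SD, n = 3). Most of the difference in that sum was LCP1, an actin bundler, at 18.2 ± 1.90 and 135 ± 51.5 CPM. The 10 epithelial markers summed to 548 to 641 and 626 to 650 CPM (3 of 8 tested higher, 3 lower), and the 6 endothelial markers to 6.85 to 9.61 and 2.41 to 3.58 CPM (0 of 4 tested higher, 2 lower).

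Among the 10 genes, 2 were higher in the knockdown (PCGF5 and RYBP), 4 were lower (PCGF3, PCGF6, PCGF2 and KDM2B) and 4 did not pass the test (RING1, RNF2, BMI1 and PCGF1). The test was edgeR's quasi-likelihood test with Benjamini-Hochberg adjustment over 14504 genes, and all 10 members had enough reads to be tested. In this comparison 61.6% of all tested genes were called, 30.8% higher and 30.8% lower, so 6 of 10 members called is close to the share over all genes. For 8 of 10 members the 3 scrambled and 3 knockdown CPM values were fully apart, as they were for 67.4% of tested genes. The median log2 fold change of the members was −0.14, beside 0.01 over all tested genes, and their median absolute log2 fold change was 0.36, beside 0.46.

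**Figure D1:**
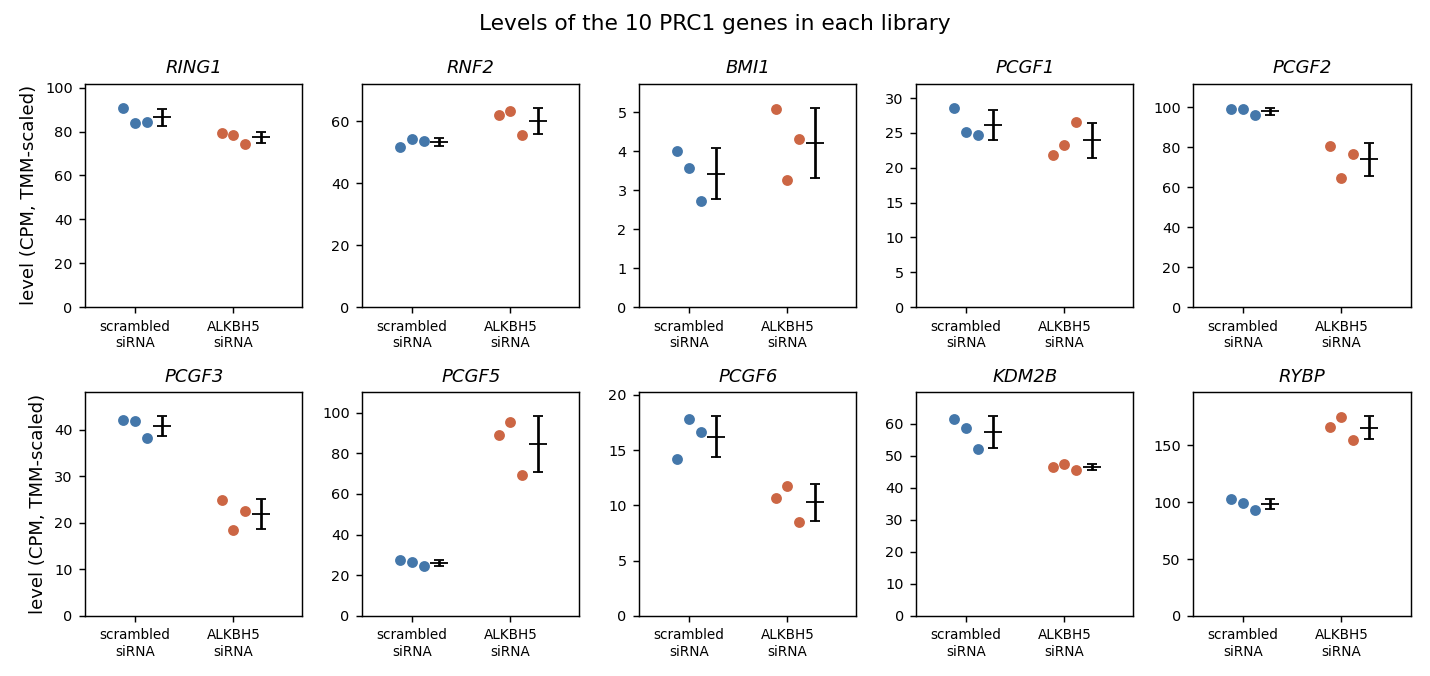
Level of each of the 10 PRC1 genes in every library, in CPM scaled by TMM, on axes that start at 0. Dots are the 3 libraries of each group and the bar beside them is the mean ± SD. PCGF5 and RYBP are higher in all 3 knockdown libraries, and the groups overlap only for BMI1 and PCGF1.

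Neither ligase gene passed the test, and the fitted differences were small and of opposite sign. RING1 had 90.9, 84.0 and 84.4 CPM in the scrambled libraries and 79.3, 78.5 and 74.5 CPM in the knockdown libraries. Every knockdown library lay below every scrambled library, but the difference did not pass (log2 fold change −0.16, 95% interval −0.33 to 0.01, edgeR adjusted p = 0.099). RNF2, the main ligase in many cell types, had 51.8, 54.4 and 53.8 CPM against 62.1, 63.2 and 55.4 CPM. Here the knockdown libraries were all above the scrambled ones, and the test again did not pass (log2 fold change 0.18, 95% interval −0.01 to 0.37, edgeR adjusted p = 0.098). The intervals leave room for a RING1 decrease of up to 0.33 and an RNF2 increase of up to 0.37 on the log2 scale. RING1 passed when libraries were scaled by their totals alone (log2 fold change −0.22, adjusted p = 0.024 by edgeR), and RNF2 passed without knockdown replicate 3 (0.24, adjusted p = 0.042 by edgeR).

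The balance of the ligase genes was also read within each library, where it needs no scaling. The log2 ratio of RING1 to RNF2 reads was 0.81, 0.63 and 0.65 in the scrambled and 0.35, 0.31 and 0.43 in the knockdown libraries. All 3 knockdown ratios were below all 3 scrambled ratios. The mean ratio went from 0.70 ± 0.10 to 0.36 ± 0.06 (SD, n = 3), a difference of −0.33 on the log2 scale. The exact 2-sided permutation test gave p = 0.1, the smallest value that this test can give with 3 libraries against 3, so it cannot reach 0.05.

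PCGF5 had the largest fold change of the 10 genes. Its read counts were 663, 550 and 469 in the scrambled and 1737, 1818 and 1356 in the knockdown libraries, or 27.6, 26.4 and 24.5 CPM against 88.9, 95.6 and 69.4 CPM. The lowest knockdown library was still far above the highest scrambled one, and knockdown replicate 3 was the lowest of its group. The rise was 3.23-fold (log2 fold change 1.69, SE 0.12, 95% interval 1.43 to 1.96, edgeR adjusted p = 2.7e-07). Of all tested genes, 93.3% had a smaller absolute log2 fold change. With each library left out in turn the log2 fold change lay between 1.60 and 1.82. PCGF5 protein builds variant complexes without a CBX subunit. In bulk RNA, a change in the number of cells that express a gene and a change in RNA per cell cannot be told apart.

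PCGF3, the closest relative of PCGF5 and a subunit of the same kind of variant complex, went the other way. It had 42.2, 41.8 and 38.3 CPM in the scrambled and 24.9, 18.5 and 22.5 CPM in the knockdown libraries. The groups stood well apart, and the fall was 1.85-fold (log2 fold change −0.89, SE 0.12, 95% interval −1.15 to −0.63, edgeR adjusted p = 3.9e-05). Within libraries, the log2 ratio of PCGF5 to PCGF3 reads was −0.61, −0.66 and −0.64 in the scrambled and 1.84, 2.37 and 1.62 in the knockdown libraries. PCGF3 thus gave more reads than PCGF5 in each scrambled library and fewer in each knockdown library. The ratio was examined after both values were known and is given without a test. Reads were not corrected for length in it, which leaves its difference between the groups (2.58 on the log2 scale) unaffected. In GENCODE 29, 8.70% of the exon bases of PCGF3 lie opposite exons of other genes.

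The other PCGF genes were lower or did not pass. PCGF6, which forms a complex with MGA, E2F6 and L3MBTL2, had 14.2, 17.8 and 16.6 CPM in the scrambled and 10.7, 11.7 and 8.45 CPM in the knockdown libraries. It fell by 0.65 on the log2 scale (SE 0.15, edgeR adjusted p = 0.0024), and the groups did not overlap. PCGF2, also known as MEL18, had 99.2, 99.0 and 96.03 CPM against 80.7, 64.6 and 76.4 CPM. It fell by 0.41 on the log2 scale (SE 0.09, edgeR adjusted p = 0.0022), and its knockdown libraries were more spread than its scrambled ones. In GENCODE 29, 45.0% of the exon bases of PCGF2 lie opposite exons of other genes, CISD3 among them, so its reads are uncertain unless strand was used in counting, which is not given in the sources used here.

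PCGF1, the partner of KDM2B and BCOR, had 28.6, 25.2 and 24.7 CPM in the scrambled and 21.8, 23.3 and 26.6 CPM in the knockdown libraries. The groups overlapped, and the gene did not pass (log2 fold change −0.13, 95% interval −0.38 to 0.12, edgeR adjusted p = 0.33). BMI1, the founding PCGF gene and a repressor of the CDKN2A locus, had the fewest reads of the set. It had 96, 74 and 52 reads in the scrambled and 99, 62 and 84 reads in the knockdown libraries. These are 3.996, 3.55 and 2.72 CPM against 5.07, 3.26 and 4.30 CPM, and the groups overlapped (log2 fold change 0.29, 95% interval −0.20 to 0.78, edgeR adjusted p = 0.28). A read-through gene, COMMD3-BMI1, shares 1000 of the 3428 exon bases of BMI1 in GENCODE 29, and it is listed at 0 reads in all 6 libraries. How the reads of shared exons were assigned is not given, so the level of BMI1 is uncertain beside those of the other PCGF genes.

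**Figure D2:**
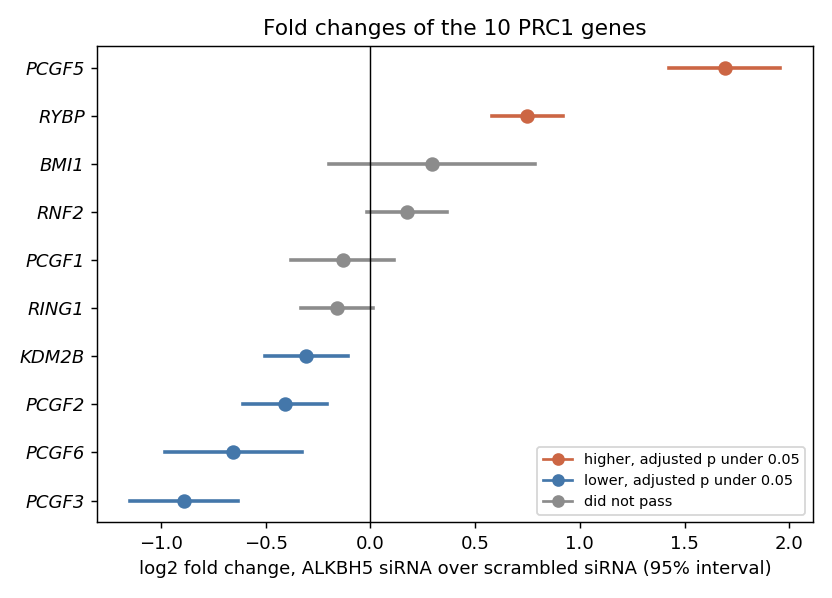
Log2 fold change of each gene, ALKBH5 siRNA over scrambled siRNA, with its 95% interval from edgeR's quasi-likelihood fit. Genes are ordered by fold change, from PCGF3 at −0.89 to PCGF5 at 1.69, and colours mark those called higher or lower at an adjusted p under 0.05.

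The subunits of the variant complexes also moved in opposite directions. RYBP, which binds RING1 or RNF2 and the ubiquitinated H2A that they make, had 103, 99.2 and 93.6 CPM in the scrambled and 167, 175 and 155 CPM in the knockdown libraries. All knockdown libraries were higher, by 1.68-fold on average (log2 fold change 0.75, SE 0.08, 95% interval 0.58 to 0.92, edgeR adjusted p = 5.5e-06). Its paralogue YAF2, which can take its place, had 21.2 ± 0.35 and 24.6 ± 3.53 CPM (SD, n = 3) and did not pass (log2 fold change 0.21, edgeR adjusted p = 0.14). YAF2 passed without knockdown replicate 3 (0.33, adjusted p = 0.022 by edgeR). The log2 ratio of RYBP to YAF2 reads was 2.27, 2.20 and 2.16 in the scrambled and 2.69, 2.68 and 2.91 in the knockdown libraries, given without a test.

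KDM2B, the CpG-binding demethylase of the PCGF1 complex, had 61.6, 58.7 and 52.0 CPM in the scrambled and 46.5, 47.4 and 45.6 CPM in the knockdown libraries. The knockdown values were close together and below all scrambled values. KDM2B fell by 0.31 on the log2 scale (SE 0.09, edgeR adjusted p = 0.012), the smallest change among the 6 called members. Exons of other genes, RNF34 among them, lie opposite 9.08% of its exon bases, while PCGF5 and RYBP share none in GENCODE 29. The call was lost without scrambled replicate 1 (log2 fold change −0.26, adjusted p = 0.059 by edgeR). When edgeR's glmTreat tested against a change of 1.5-fold, PCGF5 (adjusted p = 3.8e-06), RYBP (adjusted p = 0.032) and PCGF3 (adjusted p = 0.014) still passed, and PCGF2, PCGF6 and KDM2B did not.

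Levels of different genes were compared per length, as RPKM (CPM divided by the annotated exon length in kilobases). In the scrambled libraries RING1 led with 49.3 ± 2.23 RPKM, then PCGF2 with 27.9 ± 0.50, RNF2 with 14.8 ± 0.38, PCGF1 with 14.6 ± 1.20 and RYBP with 13.6 ± 0.63 RPKM (SD, n = 3). The libraries of RNF2, PCGF1 and RYBP overlapped from neighbour to neighbour, so their order is not resolved. KDM2B (7.86 ± 0.67), PCGF6 (7.27 ± 0.83) and PCGF3 (6.37 ± 0.33 RPKM) came next and overlapped in the same way. PCGF5 followed with 3.60 ± 0.21 RPKM, below all 3 PCGF3 values, and BMI1 was last at 0.999 ± 0.19 RPKM.

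In the knockdown libraries RING1 still led (44.2 ± 1.46 RPKM), but RYBP was now second with 23.0 ± 1.39 RPKM, overlapping PCGF2 at 21.0 ± 2.38 RPKM. RNF2 (16.7 ± 1.17), PCGF1 (13.3 ± 1.38) and PCGF5 (11.7 ± 1.87 RPKM) followed. PCGF5 had moved from ninth to sixth place, and its values overlapped those of PCGF1. KDM2B stood at 6.37 ± 0.12, PCGF6 at 4.62 ± 0.75, PCGF3 at 3.44 ± 0.50 and BMI1 at 1.23 ± 0.26 RPKM. Only PCGF6 and PCGF3 overlapped among these last neighbours. These levels rest on annotated exon lengths, such as 7265 bases for PCGF5 and 1752 for RING1, and not on the transcripts that U2OS cells use. With coding lengths RYBP ranked first in both groups, and PCGF5 (rank 5 in the scrambled group) was at rank 2 in the knockdown group.

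Because each complex holds a single PCGF protein, the make-up of the PCGF transcripts was computed within each library. The data used here hold no protein or H2A ubiquitin levels, so the shares describe transcripts and not complexes. PCGF5 made up 6.11%, 5.92% and 5.75% of all PCGF reads per kilobase in the scrambled and 21.3%, 24.5% and 17.5% in the knockdown libraries. Its mean share went from 5.93% ± 0.18 to 21.1% ± 3.54 (SD, n = 3), a difference of 15.2 percentage points, with every knockdown library above every scrambled one. The share of PCGF2 went from 46.0% ± 0.56 to 38.0% ± 3.23, that of PCGF3 from 10.5% ± 0.25 to 6.20% ± 0.71 and that of PCGF6 from 11.98% ± 1.52 to 8.35% ± 1.44. For these 4 genes the exact 2-sided permutation test gave p = 0.1, or 0.15 adjusted over the 6 shares, and 0.1 is the smallest possible p. PCGF1 held 24.0% ± 1.504 and 24.2% ± 3.00 (exact permutation p = 1), and the sign of its difference depended on the length used. BMI1 held 1.64% ± 0.27 and 2.21% ± 0.40 (exact permutation p = 0.2). With raw reads the PCGF5 share differed by 26.2 points, and with coding lengths by 29.3 points. With coding lengths PCGF5 held 45.7%, 51.2% and 40.1% in the knockdown libraries, above PCGF2 at 30.8%, 25.6% and 32.7%. With raw reads it was above PCGF2 in knockdown replicates 1 and 2 (38.3% and 44.1% against 34.8% and 29.7%). The PCGF5 share was higher in the knockdown on all 3 scales, as it must be for the gene with the largest rise of the 6. A length cancels in a gene's own fold change, so the 3 scales give no separate support. The rank of PCGF5 beside PCGF2 depended on the scale.

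**Figure D3:**
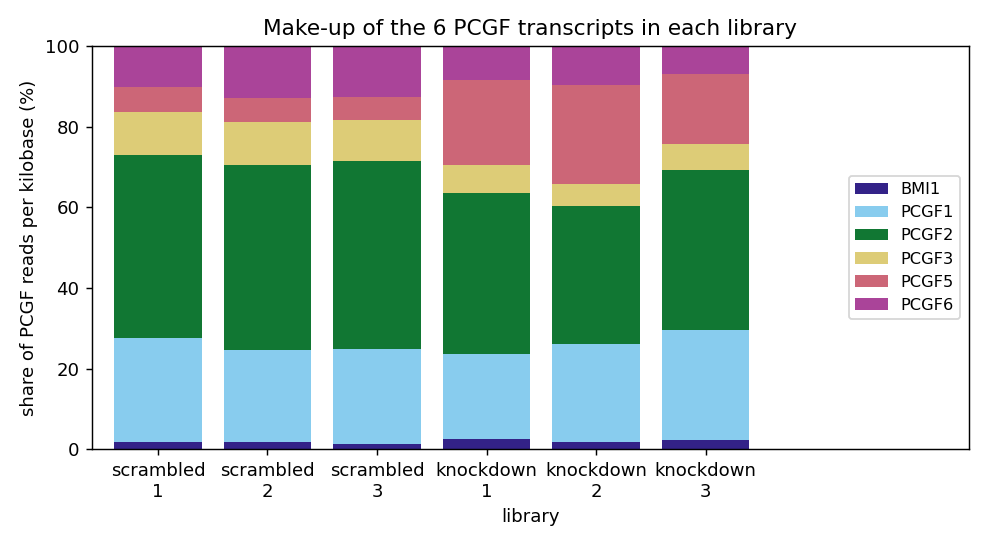
Share of each PCGF gene in the summed PCGF reads per kilobase of each library, in percent, stacked to 100. The PCGF5 part is at most 6.11% in the scrambled libraries and between 17.5% and 24.5% in the knockdown libraries, and PCGF2 has the largest share in all 6 at these exon lengths, though not in the knockdown libraries with coding lengths.

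The direction of the summed PCGF level depended on the length used, while the sum without PCGF5 was lower in the knockdown on each scale. With exon lengths the sum was 62.2, 61.4 and 58.7 RPKM in the scrambled and 57.6, 53.7 and 54.7 RPKM in the knockdown libraries, with the knockdown lower throughout. With coding lengths it was 213.6, 210.2 and 200.02 against 253, 243 and 226 CPM per kilobase, with the knockdown higher throughout. Without PCGF5 the sum with exon lengths was 58.4, 57.8 and 55.4 RPKM against 45.3, 40.5 and 45.2 RPKM. With coding lengths it was 178, 176 and 168 against 138, 119 and 135 CPM per kilobase. RING1 and RNF2 together gave 66.3, 63.0 and 63.1 RPKM in the scrambled and 62.5, 62.3 and 57.9 RPKM in the knockdown libraries, and with coding lengths the groups overlapped.

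Genes whose profiles over the 6 libraries lay nearest to those of the extreme members were sought among the 11826 tested genes whose mean log2 CPM reached 2. Likeness was the distance between log2 CPM values centred on each gene's mean. Nearest to PCGF5 were FAM177A1 (distance 0.107, log2 fold change 1.67), FHL1 (0.135, 1.60) and PMAIP1 (0.163, 1.76). Nearest to PCGF3 were LOC100130331 (distance 0.098, log2 fold change −0.93), PTOV1 (0.136, −0.97) and STUB1 (0.141, −0.90). With 2 groups of libraries, this likeness mostly reflects a similar difference between the groups.

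Other PRC1 subunits went both ways. Of 28 genes, all tested, 10 were higher, 7 lower and 11 did not pass, and the median log2 fold change was 0.04. Over all tested genes 30.8% were higher and 30.8% lower, so these counts are close to the background. Among the CBX readers, CBX6 fell from 134 ± 4.28 to 54.5 ± 4.49 CPM (log2 fold change −1.30, edgeR adjusted p = 1.4e-07), and CBX2 fell from 182 ± 13.7 to 109 ± 8.16 CPM (log2 fold change −0.74). CBX7 did not pass (58.8 ± 4.76 and 51.4 ± 4.15 CPM, edgeR adjusted p = 0.098). It passed with library totals as the scale (adjusted p = 0.039). CBX8 did not pass either (18.1 ± 1.31 and 16.3 ± 1.13 CPM, edgeR adjusted p = 0.27). Among the polyhomeotic genes, which link canonical complexes to each other, PHC3 rose by 0.81 and PHC1 fell by 0.51 on the log2 scale.

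Partners of the variant complexes included genes called in either direction. In the complexes that PCGF3 and PCGF5 both form, AUTS2 fell by 0.68 on the log2 scale, FBRS rose from 40.4 ± 1.66 to 61.0 ± 5.95 CPM (log2 fold change 0.59) and the kinase subunit CSNK2A1 rose from 75.1 ± 5.60 to 110 ± 9.19 CPM (0.55). Its regulatory partner CSNK2B fell by 0.25 on the log2 scale (edgeR adjusted p = 0.0083). In the PCGF6 complex, MGA rose by 0.38 and TFDP1, a partner of E2F factors, by 0.60, while CBX3 fell by 0.37 on the log2 scale. L3MBTL2 fell by 0.26 (edgeR adjusted p = 0.018), and PCGF6 itself was lower. CSNK2B and L3MBTL2 were chosen for naming after their values were seen.

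Of 13 PRC2 genes, 5 were lower, 2 were higher and 6 did not pass, with a median log2 fold change of −0.07. The background was 30.8% of all tested genes lower and 30.8% higher. EZH2, the main H3 methyltransferase of PRC2, fell from 27.7 ± 0.35 to 13.5 ± 0.43 CPM (log2 fold change −1.04, edgeR adjusted p = 2.9e-06). Its paralogue EZH1 rose from 25.3 ± 0.77 to 36.2 ± 5.88 CPM (log2 fold change 0.52). C10orf12, which encodes a PRC2 accessory protein, rose by 1.00, and the accessory gene PHF19 fell by 0.47 on the log2 scale. The core genes SUZ12 (log2 fold change −0.23) and RBBP4 (−0.26) and the H2A ubiquitin reader JARID2 (−0.29) were lower, and EED did not pass (38.4 ± 2.41 and 37.5 ± 2.89 CPM, edgeR adjusted p = 0.78). The number lower was 3 without scrambled replicate 1 and 3 without scrambled replicate 2. Both of these lost SUZ12 (adjusted p = 0.066 and 0.10) and JARID2 (0.073 and 0.057), and SUZ12 also lost its call without knockdown replicate 1 (0.079) or 3 (0.082). In the list of H2A ubiquitin readers, which repeats RYBP, YAF2, JARID2 and AEBP2, 1 of 6 was higher and 2 were lower. DNAJC2 fell by 0.62 on the log2 scale.

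Among 17 genes for removing ubiquitin from H2A, 7 were higher, 4 were lower and 6 did not pass, with a median log2 fold change of −0.04. Here too, 30.8% of all tested genes were higher and 30.8% lower. BAP1, the main H2A deubiquitinase, rose from 158 ± 2.54 to 187 ± 8.39 CPM (log2 fold change 0.24, edgeR adjusted p = 0.012). Its partners FOXK1 (104 ± 3.38 to 201 ± 6.21 CPM, 0.95), ASXL2 (80.1 ± 5.08 to 144 ± 16.7 CPM, 0.84) and OGT (0.48) rose too. HCFC1 (log2 fold change −0.31, edgeR adjusted p = 0.011) and ASXL1 (−0.20, edgeR adjusted p = 0.027), also partners of BAP1 and named after their values were seen, fell. MYSM1 rose by 0.65 on the log2 scale, while USP16, which acts on H2A in mitosis, fell by 0.63 and WDR48, a cofactor of several USP enzymes, by 0.77. Without scrambled replicate 2 the number lower was 2, USP16 and WDR48.

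Of 7 other H2A ligase genes, 2 were higher and 1 lower, with a median log2 fold change of 0.06. For this list and the next, the shares over all tested genes were 30.8% higher and 30.8% lower. BARD1 and its partner BRCA1, which ubiquitinate H2A at another site, rose by 0.71 and 0.38 on the log2 scale, and DZIP3 was the gene that fell (76.8 ± 4.24 to 35.5 ± 1.13 CPM). Among 7 ubiquitin-conjugating enzymes of the families that serve RING ligases, 2 were higher and 2 lower, with a median of −0.01. UBE2D3 rose from 221 ± 5.95 to 265 ± 4.45 CPM and UBE2D2 by 0.26, while UBE2D4 fell by 0.82 and UBE2E3 by 0.23 on the log2 scale. UBE2D2 did not pass without scrambled replicate 1 (edgeR adjusted p = 0.065). UBE2E3 did not pass without scrambled replicate 1 (adjusted p = 0.082) or knockdown replicate 3 (adjusted p = 0.066).

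**Figure D4:**
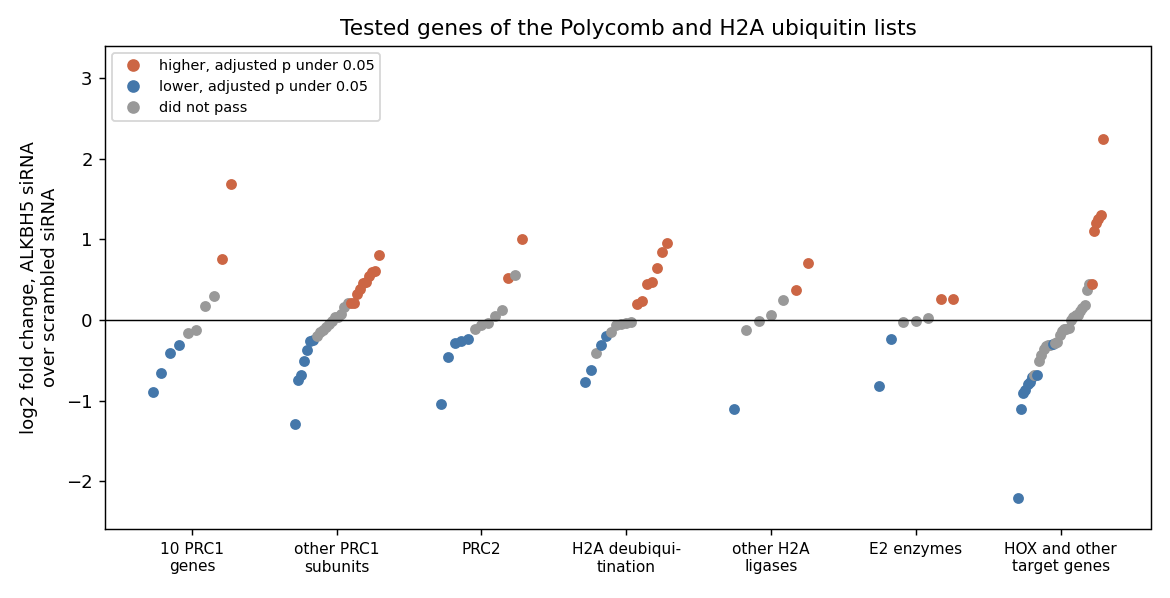
Log2 fold change (ALKBH5 siRNA over scrambled siRNA) of every tested gene in the 10-gene set and in 6 related lists, each list sorted from low to high. Every list holds genes called higher and genes called lower, and PCGF5 at 1.69 is the highest of the 10 PRC1 genes.

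HOX genes and other classical Polycomb targets, 47 in the list, were mostly at low levels, and 38 were tested. Of these, 6 were higher, 9 were lower and 23 did not pass, with a median log2 fold change of −0.16. Fewer were called than in the background, where 30.8% of tested genes were higher and 30.8% lower. Low read counts widen the errors of genes at low levels, and this comparison of shares was not adjusted for read depth. HOXB9 rose from 29.4 ± 1.48 to 67.4 ± 5.60 CPM (log2 fold change 1.20, edgeR adjusted p = 6.2e-07), HOXA10 from 16.2 ± 0.71 to 39.9 ± 3.46 CPM (1.30) and HOXC8 from 5.67 ± 0.12 to 13.5 ± 2.19 CPM (1.25). HOXB13 fell from 19.8 ± 1.93 to 9.26 ± 1.25 CPM (−1.10). HOX genes overlap antisense and read-through transcripts, so their counts are uncertain. CDKN2A, the best known BMI1 target, had 5 reads in scrambled replicate 2 and 0 in the other 5 libraries and was not tested. HOXC12 and HOXD12 were at 0 in all libraries.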

How the data were processed

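The authors deposited raw read counts per gene symbol (single 50-base reads from a stranded poly(A) kit, per the labels' protocols), in a series table equal to the 6 single-sample files. Per the submitters' processing notes, reads went through CASAVA 1.8.2, TopHat2, SAMtools and HTSeq on hg19. For settings, annotation and strand option, nothing is given in the sources used here. HTSeq summary lines were left out of library sizes.

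Counts were filtered with filterByExpr, scaled with TMM and tested in edgeR 4.0.16 under R 4.3.3. The test used robust glmQLFit and glmQLFTest, 2-sided, with group as single term. P-values were adjusted by Benjamini-Hochberg over 14504 genes, with a threshold of 0.05. The script was tested on simulated counts in which few genes changed. That test does not cover data in which 61.6% of tested genes were called, as here. The PCGF shares and the RING1 to RNF2 ratio used exact permutation tests; other ratios were not tested. Lengths are union exons of GENCODE 29 (GRCh38) protein-coding transcripts, used as lengths only. Alternatives were RLE or no scaling, other filters, DESeq2 1.42.0, limma-voom 3.58.1, glmTreat, a replicate block and each library left out. Members and gene lists were chosen with earlier results of these data known. Named genes were ALKBH5, all members, a fixed set of 10 Polycomb genes, and, from every list, those called at the lowest adjusted p (up to 10 for other PRC1 subunits, 6 for PRC2 and for H2A deubiquitination, 4 elsewhere); some are given by their list's count only or are not reported here. Chi-square divided by its degrees of freedom was 5.96 to 16.3 between libraries of a group, above sampling noise, so none was treated as a second deposit of another library.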

Additional observations from a re-analysis of the deposited data

How the results depend on the processing

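All 10 members kept their direction under the 15 alternatives run for each, and 144 of 150 values stayed on the same side of the threshold. The other 6 were the calls of PCGF2, PCGF6 and KDM2B lost under glmTreat, that of KDM2B lost without scrambled replicate 1, and those of RING1 and RNF2 gained as given above. DESeq2 made the same 6 member calls. Under glmTreat against 1.5-fold, which asks for a larger change, 1 member was lower, and 1891 genes were higher and 1710 lower over all. In the other PRC1 subunits 1 was then higher and 2 lower, in PRC2 1 and 1, and among H2A deubiquitination genes 2 and 1. With single libraries left out, 3 to 5 PRC2 genes and 2 to 5 H2A deubiquitination genes were lower.

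The difference in share depended on the length used. With raw reads it was −12.8 points for PCGF2, −9.29 for PCGF3, 26.2 for PCGF5 and −1.42 for PCGF1, whose main value was 0.165. With coding lengths it was −15.9, −6.82, 29.3 and −3.32, and 0.111 for BMI1. The PCGF1 difference ran from −1.32 to 1.68 with single libraries left out, so it has no direction. Leaving BMI1 out of the sum, chosen after seeing the data, gave 15.5 points for PCGF5. The PCGF summed level differed by −8.97% in the knockdown by exon length, but by 15.8% by coding length and 3.87% in raw reads, both also chosen after seeing the data. Replicate numbers are shared between the groups, but the labels do not say that they mark a shared batch, so they were not taken as pairs. Deviations of same-numbered libraries correlated at 0.33, 0.058 and 0.35, and those of differently numbered libraries at −0.37 to 0.077. A shared replicate effect is therefore possible. For 5 of 6 libraries the own number correlated best. A replicate block gave 2 members higher and 4 lower, and 4865 and 4895 genes over all. Among the other named genes it added CBX7 (edgeR adjusted p = 0.041). For the shares and the ligase ratio its exact sign-flip test cannot go below 0.25. The ligase ratio difference lay between −0.37 and −0.27 with single libraries left out. Depth limits BMI1 most, with at most 99 reads per library.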
